A study of Mus musculus with 6 samples.

Results

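Synaptic vesicle and synapse assembly genes, 39 in all, were followed in newborn mouse retina with and without cyclin D1. The genes were taken by name: 31 encode presynaptic proteins (the fusion machinery, vesicle proteins, active zone, transmitter loading and neurexins) and 8 encode postsynaptic proteins (neuroligins and scaffolds). Each of the 39 had a probe set assigned to that gene alone, among 18193 genes so represented on the array, and the probe set brightest on average across the pools stood for the gene. The choice of genes went by function and used no measured value of them, but the list was drawn up with earlier results of these data known. Measured signal, averaged over all pools whatever the genotype, decided which probe set stood for each gene.

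Retinas were dissected from cyclin D1 -/- neonates and from wildtype neonates at birth, pooled, and hybridised as labelled RNA to Affymetrix expression arrays. There were 3 knockout pools and 3 wildtype pools. The number of animals in a pool, their strain and whether pools shared litters are not given in the labels. Each p-value therefore sets a difference against the variation between these pools, not between single animals. The study asked how loss of cyclin D1 alters transcription of genes that the protein binds, and the binding data were not analysed here.

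A synaptic vesicle fuses when a SNARE protein on the vesicle, synaptobrevin, zips together with the plasma membrane SNAREs syntaxin and SNAP-25. Synaptotagmins sense the calcium that triggers this step, complexins clamp and prime it, and NSF with SNAP adaptors takes the spent SNARE complexes apart. Active zone scaffolds hold vesicles and calcium channels in register, and neurexins on the axon bind neuroligins on the target cell to align both sides. At birth the mouse retina has ganglion, amacrine, horizontal and early cone cells, progenitors are still dividing, and the ribbon synapses of rods and bipolar cells form later.

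Levels are given as log2(normalised signal + 16), and a difference is the knockout mean minus the wildtype mean on that scale. A gene was called at an adjusted p below 0.1, the submitters' own threshold, from limma fitted over the 10916 brightest genes. The remaining 7277 genes, with a mean below 6.21, were not tested. Ccnd1, the deleted gene, stood at 8.86, 8.81 and 8.92 in knockout pools and 12.43, 12.35 and 12.56 in wildtype pools, a 12.0-fold difference. The median deposited signal per array lay between 40.6 and 50.5. Pools 1 and 2 of each genotype were close to each other, with an SD of gene differences of 0.21 in knockout and 0.22 in wildtype, against 0.28 to 0.52 for every other pair of arrays. The labels do not say whether these pools share animals or RNA. If they do, each genotype has only 2 independent samples and the p-values are too small. The arrays were ranked by the mean log2 signal of the spiked hybridisation controls and cut into 3 and 3. The brighter set was knockout pools 1 and 2 (9.82 and 9.97) and wildtype pool 3 (10.15). The dimmer set was knockout pool 3 (9.53) and wildtype pools 1 and 2 (9.66 each). The cut was made by rank, so the sets need not be batches, and each holds only 1 pool of 1 genotype. The difference of a gene within each of these sets is given where it bears on a result.

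Of the 39 synaptic genes, 30 were bright enough to test, 24 presynaptic and 6 postsynaptic. Among these 30 genes, Syt4 rose and Rims1 fell in knockout retina, and the other 28 did not pass the test. Over all tested genes 2.03% were called higher and 2.63% lower, so 1 call each way among 30 is close to the background. The call for Syt4 held in 18 of 19 alternative settings and was lost when pools 1 and 2 of each genotype were averaged, whereas that for Rims1 was lost in 10. At an unadjusted p below 0.05 in limma there were 7 synaptic genes, all presynaptic, against 13.5% of all tested genes. All 3 knockout pools lay above all 3 wildtype pools in 7 synaptic genes, where 10.5% of all tested genes did so, and below them in 3, where 9.48% did so. The share of all calls that were higher depended on scaling, with 222 higher and 287 lower calls after quantile normalisation, 416 and 176 on the deposited values, and 156 and 135 after centring each array.

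The differences of the 30 tested genes ran from -0.53 to 0.69, with 21 above 0 and 9 below. Their median was 0.11, beside 0.02 for all tested genes, of which 54.3% lay above 0. The median size of a difference, without its sign, was 0.19 for the synaptic genes and 0.13 for all tested genes. In these pools of whole retina, fewer cells of a type and less RNA per cell cannot be told apart.

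**Figure D1:**
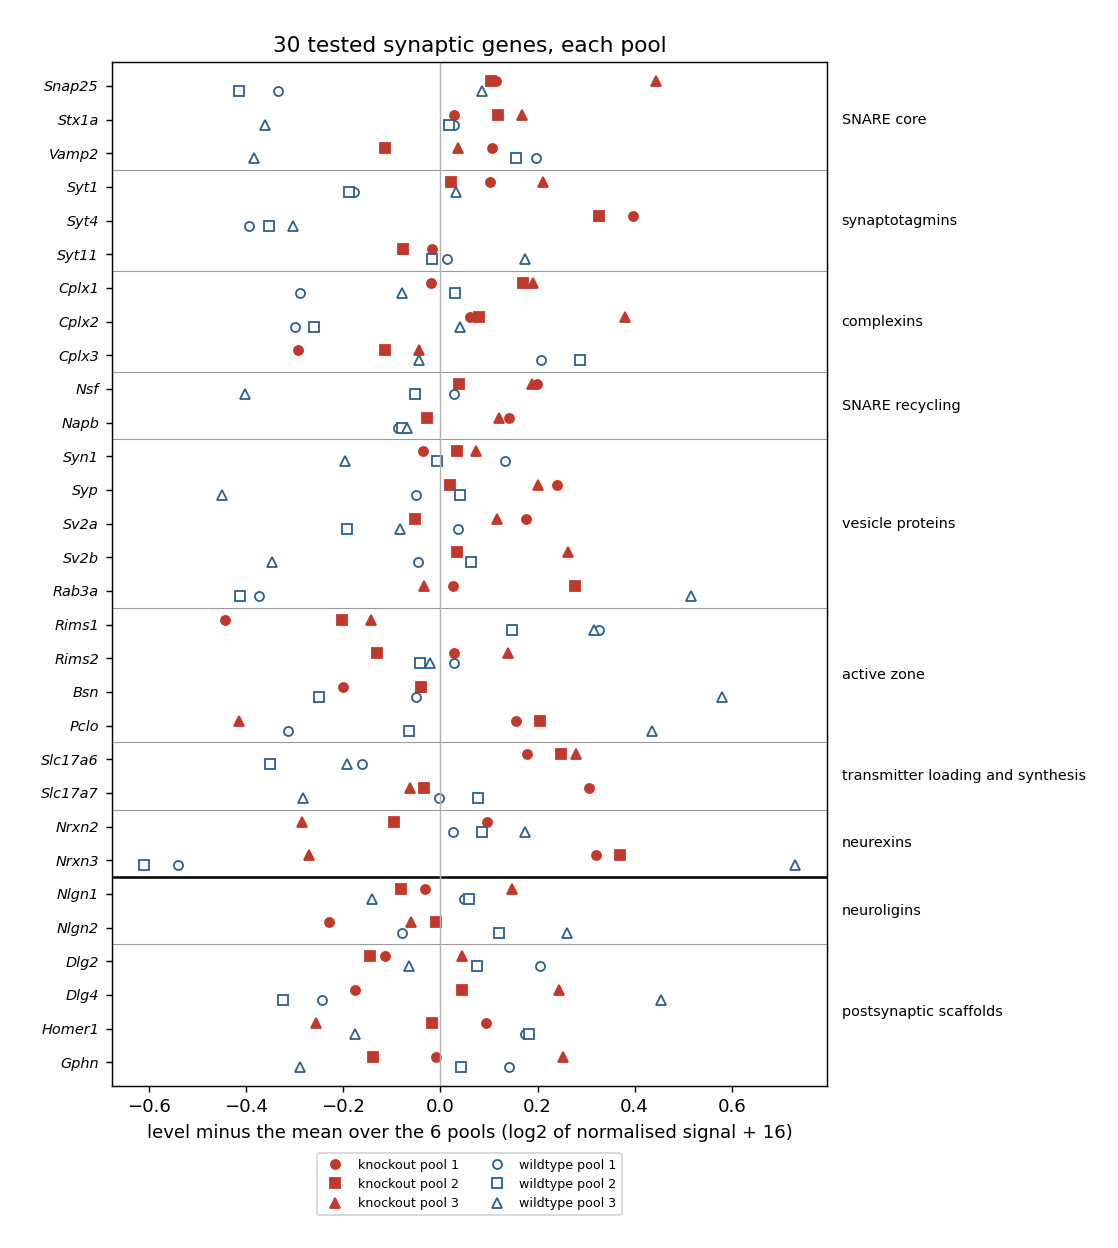
Level of each of the 30 tested synaptic genes in each pool, as the distance from that gene's mean over 6 pools on the log2 scale. Filled red symbols are knockout pools, open blue symbols wildtype pools, and the heavy line parts presynaptic from postsynaptic genes. Syt4, Rims1 and Slc17a6 show the widest clear gaps between genotypes, and wildtype pool 3 stands far from the other wildtype pools in Nrxn3, Rab3a and Bsn.

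Among the plasma membrane and vesicle SNAREs, no gene was called. Snap25, which encodes SNAP-25, stood at 9.40, 9.39 and 9.73 in knockout pools and 8.95, 8.87 and 9.37 in wildtype pools. The genotypes did not overlap, but only by 0.01, because pool 3 was high in both. The difference was 0.44 (SE 0.16, limma adjusted p = 0.241), and it measured 0.02 within the brighter arrays and 0.82 within the dimmer ones. A second Snap25 probe set gave -0.01. Stx1a, a neuronal syntaxin, stood at 7.76, 7.85 and 7.90 in knockout pools and 7.76, 7.75 and 7.37 in wildtype pools. The groups were 0.01 apart and wildtype pool 3 was the low value. The difference was 0.22 (adjusted p = 0.633, limma), from a probe set of a kind that may cross-match related transcripts. A second Stx1a probe set, not of that kind, gave 0.21. Vamp2, the main synaptobrevin of brain synapses, differed by 0.02 with overlapping pools.

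Syt4 was the synaptic gene with the largest difference. It encodes a synaptotagmin found on dense-core and Golgi-derived vesicles, which binds calcium weakly in comparison with Syt1. Its level was 9.22, 9.15 and 9.15 in knockout pools and 8.43, 8.47 and 8.52 in wildtype pools. The lowest knockout pool was 0.62 above the highest wildtype pool, and the pools of each genotype lay close together (SD 0.04 in knockout and 0.05 in wildtype, n = 3 each). The difference of 0.69 (SE 0.09, 95% interval 0.50 to 0.89) was a 1.62-fold rise with an adjusted p of 0.00608 in limma. It measured 0.66 within the brighter and 0.70 within the dimmer arrays, and the other Syt4 probe set gave 0.64. With pools 1 and 2 of each genotype averaged into 1 sample, the difference was 0.68 and the call was lost (limma adjusted p = 0.210).

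The other synaptotagmins differed less. Syt1, the fast calcium sensor for release, averaged 9.93 ± 0.10 in knockout and 9.71 ± 0.13 in wildtype pools (SD, n = 3 each). The Syt1 difference was 0.22 (limma adjusted p = 0.359), with 0.03 within the brighter and 0.39 within the dimmer arrays. Its 3 bright probe sets lay between 0.18 and 0.30. Syt11, which like Syt4 is not a conventional calcium sensor, stood at 9.09, 9.03 and 9.03 in knockout pools and 9.12, 9.09 and 9.28 in wildtype pools. Its difference was -0.12 (adjusted p = 0.726, limma) with groups 0.01 apart, and it had the other sign on the deposited values (0.08) and after centring (0.01). The 5 Syt11 probe sets ran from -0.25 to 0.03.

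The complexins went both ways without a call. Cplx2 stood at 9.81, 9.83 and 10.13 in knockout pools and 9.45, 9.49 and 9.79 in wildtype pools, with pool 3 the highest of each genotype and a gap of 0.02 between the groups. Its difference was 0.34 (SE 0.13, limma adjusted p = 0.269), with 0.03 within the brighter and 0.66 within the dimmer arrays, and 3 probe sets between 0.28 and 0.64. Cplx3, the complexin typical of retinal ribbon synapses, stood at 8.18, 8.36 and 8.43 in knockout pools and 8.68, 8.76 and 8.43 in wildtype pools. Here the groups were 0.003 apart, at pool 3 of each genotype, and the difference was -0.30 (SE 0.12, limma adjusted p = 0.338). Cplx1, the other complexin widely used in conventional synapses, differed by 0.22 with overlapping pools.

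The genes for SNARE recycling were slightly higher in knockout pools, within the error of the test. Nsf, the ATPase that unwinds SNARE complexes, stood at 7.99, 7.83 and 7.98 in knockout pools and 7.82, 7.74 and 7.39 in wildtype pools. Wildtype pool 3 was the low value, and the difference was 0.29 (limma adjusted p = 0.469). Napb, the neuronal beta-SNAP that recruits NSF, stood at 8.84, 8.67 and 8.82 in knockout pools and 8.61, 8.62 and 8.63 in wildtype pools. The groups were 0.04 apart, the difference was 0.16 (adjusted p = 0.571, limma), and its 5 bright probe sets ran from 0.04 to 0.41.

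All 5 tested genes for proteins of the vesicle membrane and surface had differences above 0, between 0.04 and 0.31, with overlapping pools and no call. Syp, which encodes the vesicle membrane protein synaptophysin, had the largest of these at 0.31 (SE 0.14, limma adjusted p = 0.383), whereas its second probe set gave -0.04. Syn1, synapsin I, which tethers vesicles in the reserve pool, differed by 0.04. Sv2a and Sv2b, vesicle glycoproteins, differed by 0.16 and 0.22. Rab3a, the vesicle GTPase that binds RIM, stood at 9.26, 9.51 and 9.20 in knockout pools and 8.86, 8.82 and 9.75 in wildtype pools. Its difference of 0.18 combined -0.36 within the brighter and 0.36 within the dimmer arrays, and its probe set is also of the cross-matching kind. A second Rab3a probe set, not of that kind, stood at 9.17, 9.08 and 8.98 in knockout pools and 8.75, 8.80 and 8.84 in wildtype pools. There the genotypes did not overlap, and the difference was 0.28.

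Rims1 fell. It encodes RIM1, the active zone scaffold that ties Rab3 on vesicles to the priming factor Munc13 and to calcium channels. Its level was 7.45, 7.69 and 7.75 in knockout pools and 8.22, 8.04 and 8.21 in wildtype pools, 0.30 apart at the nearest. The difference was -0.53 (SE 0.12, 95% interval -0.82 to -0.24), 1.44-fold lower, with a limma adjusted p of 0.0754. It measured -0.64 within the brighter and -0.38 within the dimmer arrays, and a second probe set gave -0.69. The adjusted p was above 0.1 without any 1 of knockout pools 1, 2 and 3 and wildtype pools 1 and 2 (0.304, 0.260, 0.126, 0.270 and 0.140), and also on deposited values (0.205) and after centring (0.285).

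The other active zone scaffolds were not called. Rims2, the paralogue of Rims1, differed by 0.02 (95% interval -0.27 to 0.32). The difference between the Rims1 and Rims2 responses was not tested. Bsn, bassoon, which anchors ribbons and vesicles, differed by -0.19 with wildtype pool 3 at 7.53 and the other pools of both genotypes between 6.70 and 6.91. Pclo, piccolo, stood at 7.21, 7.26 and 6.64 in knockout pools and 6.74, 6.99 and 7.49 in wildtype pools, a difference of -0.04. It had the other sign on the deposited values (0.07).

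Slc17a6 came nearest to a call among the remaining genes. It encodes VGLUT2, the transporter that fills vesicles with glutamate, known in retina from ganglion cells. Its level was 7.23, 7.30 and 7.33 in knockout pools and 6.89, 6.70 and 6.86 in wildtype pools, 0.34 apart at the nearest. The difference was 0.47 (SE 0.13, 95% interval 0.18 to 0.76) with a limma adjusted p of 0.113, and it measured 0.40 within the brighter and 0.53 within the dimmer arrays. It passed 0.1 in 6 of the 18 alternatives that tested it, among them the array set as a block (adjusted p = 0.0589, limma). Slc17a7, VGLUT1, the transporter of photoreceptors and bipolar cells, differed by 0.14 with overlapping pools.

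The neurexins overlapped between genotypes. Nrxn2 differed by -0.19 (limma adjusted p = 0.659). Nrxn3 had the widest spread of the 30 genes, at 9.39, 9.44 and 8.80 in knockout pools and 8.53, 8.46 and 9.80 in wildtype pools, so that the brighter arrays were the 3 highest whatever the genotype. Its difference of 0.28 had a 95% interval of -0.53 to 1.09, and 4 bright probe sets ran from -0.44 to 0.28.

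**Figure D2:**
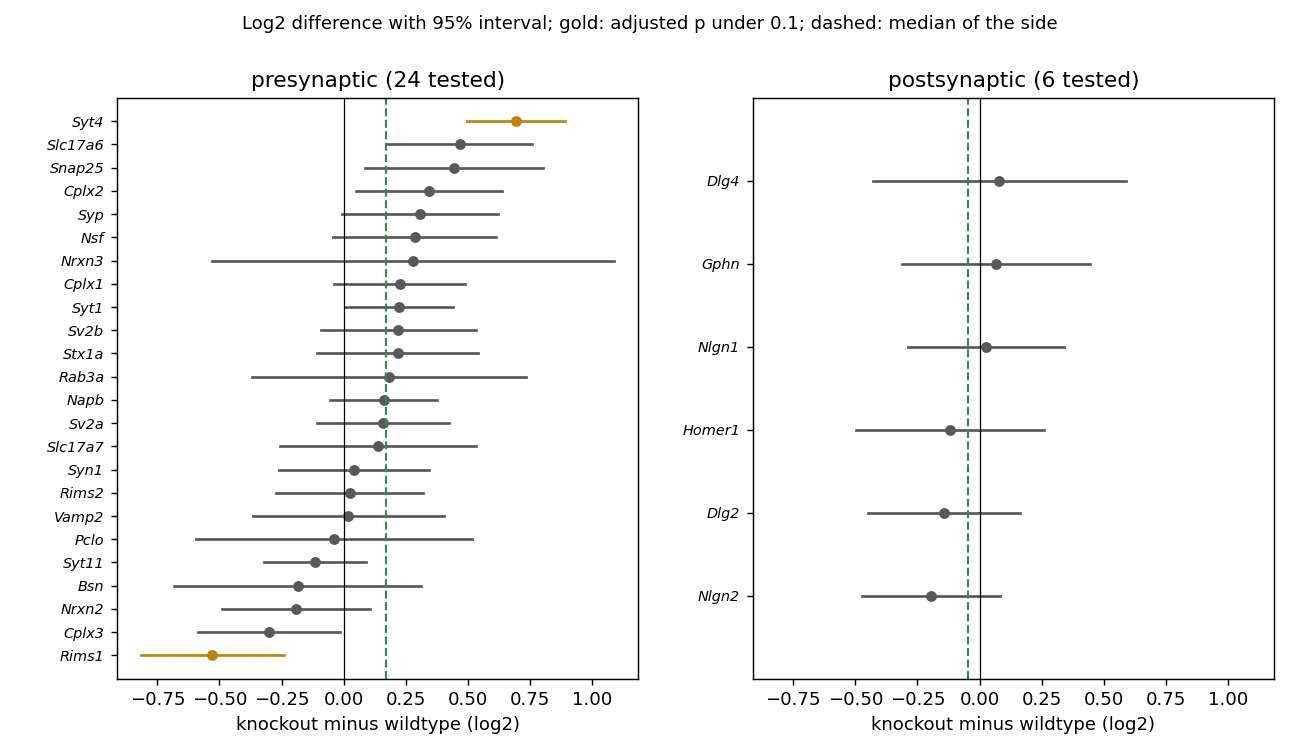
Knockout minus wildtype difference of each tested synaptic gene on the log2 scale, with its 95% interval from the limma fit. Gold marks called genes, and the dashed line is the median of the presynaptic (left) or postsynaptic (right) genes. Syt4 at 0.69 and Rims1 at -0.53 are the called genes, and the intervals of 23 genes cross 0.

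No postsynaptic gene was called. Of the neuroligins, the adhesion partners of neurexins, Nlgn1 of excitatory synapses differed by 0.03 and Nlgn2 of inhibitory synapses by -0.20 (limma adjusted p = 0.611). A second Nlgn2 probe set gave 0.24. Among scaffolds, Dlg4, which encodes PSD-95, averaged 7.74 ± 0.21 in knockout and 7.66 ± 0.43 in wildtype pools (SD, n = 3 each). Its paralogue Dlg2 differed by -0.14. Homer1, which links glutamate receptors to the scaffold, differed by -0.12, and Gphn, gephyrin, the scaffold of inhibitory synapses, by 0.07 with 3 probe sets between 0.05 and 0.15. All 6 postsynaptic genes overlapped between genotypes, and their 95% half-widths ran from 0.28 to 0.51. Of all tested genes, only 10.5% lay apart with knockout pools higher and 9.48% with knockout pools lower.

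Set side by side, 18 of 24 presynaptic and 3 of 6 postsynaptic differences lay above 0. The median difference was 0.17 for presynaptic and -0.05 for postsynaptic genes, 0.22 apart. That gap ran from 0.12 with probe sets averaged to 0.29 on the deposited values over the 19 alternatives. Within the brighter arrays the medians were 0.08 and 0.01, and within the dimmer ones 0.20 and 0.02. Scaling shifted the median of all tested genes to 0.13 on the deposited values. Relative to that of all genes, the presynaptic median was 0.15 after quantile normalisation and 0.19 on the deposited values, and the postsynaptic median was -0.07 and -0.10. Across the 19 alternatives the presynaptic median ran from 0.11 to 0.32 and the postsynaptic median from -0.11 to 0.05.

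In single pools, the median centred presynaptic level was 0.10, 0.03 and 0.12 in knockout pools and -0.04, -0.05 and -0.05 in wildtype pools. Every knockout pool was above every wildtype pool. The postsynaptic median was -0.07, -0.05 and 0.10 in knockout pools and 0.09, 0.07 and -0.10 in wildtype pools, which overlapped. Presynaptic minus postsynaptic averaged 0.09 ± 0.07 in knockout and -0.07 ± 0.10 in wildtype pools (SD, n = 3 each), and wildtype pool 3 at 0.05 lay above knockout pool 3 at 0.02. No test was made of these medians, since 24 and 6 genes are not replicates of a condition.

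**Figure D3:**
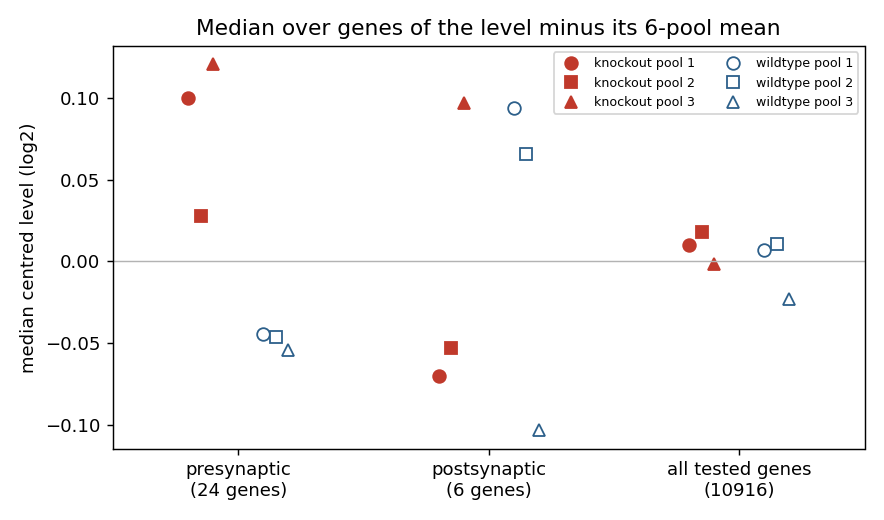
Median centred level (log2) of the 24 presynaptic, 6 postsynaptic and 10916 tested genes in each pool, with knockout pools to the left of wildtype pools for each gene set. The presynaptic medians of knockout pools (0.03 to 0.12) lie above those of wildtype pools (-0.05 to -0.04), and the postsynaptic medians overlap.

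The 9 genes too dim to test were Vamp1, Cplx4, Syn2, Sv2c, Unc13a, Slc18a3 and Chat on the presynaptic side and Nlgn3 and Shank1 on the postsynaptic side. Their pools overlapped between genotypes in every case. Cplx4, the second ribbon synapse complexin, stood at 5.84, 5.83 and 6.21 in knockout pools and 5.55, 4.40 and 6.15 in wildtype pools. Slc18a3 and Chat are the vesicular transporter and the synthetic enzyme for acetylcholine, made in retina by starburst amacrine cells. Slc18a3 stood at 5.33, 5.13 and 5.73 in knockout pools and 6.07, 5.52 and 5.95 in wildtype pools, while Chat differed by 0.08. With no filter on dim genes none of the 9 was called, at limma adjusted p of 0.567 to 0.987.

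Of the 28 uncalled genes, 17 had a 95% interval that lay wholly within a 1.5-fold change in either direction. The widest intervals were those of Nrxn3, Pclo, Rab3a, Dlg4 and Bsn. In the 17 genes with more than 1 bright probe set, 10 had all probe sets higher in knockout pools, 2 had all lower (Rims1 and Pclo) and 5 had probe sets of both signs (Snap25, Syp, Syt11, Nrxn3 and Nlgn2). The matching shares over all tested genes were not counted, and 54.3% of all tested genes had a difference above 0.

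**Figure D4:**
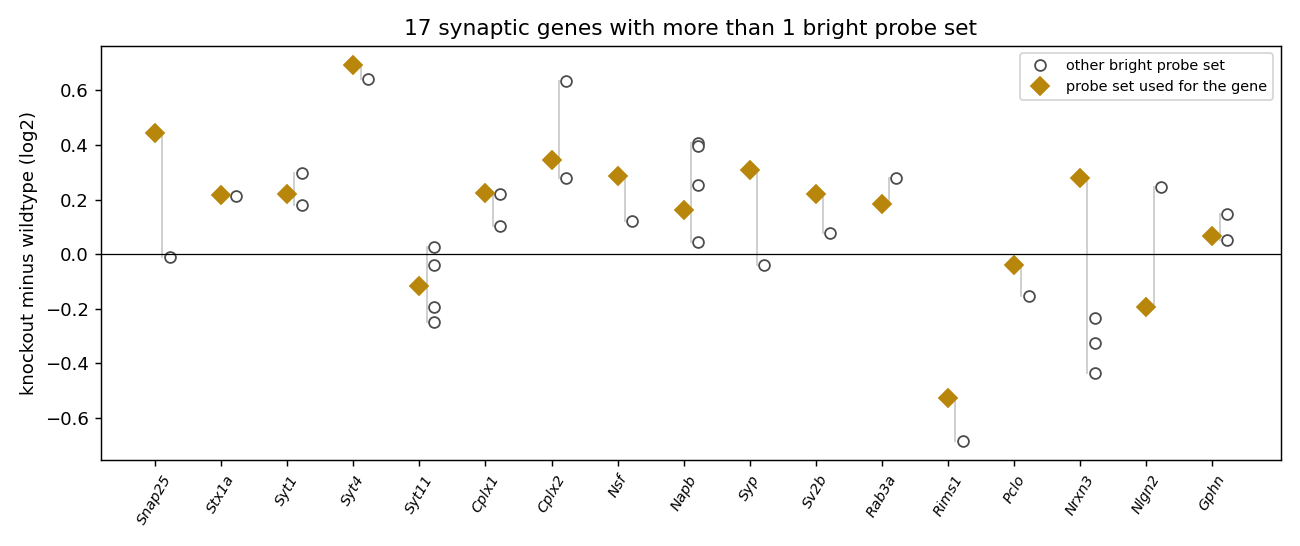
Knockout minus wildtype difference (log2) of every bright probe set of the synaptic genes that have more than 1, with gold diamonds for the probe set used and open circles for the others. Both Syt4 probe sets lie above 0.6 and both Rims1 probe sets below -0.5, whereas those of Nrxn3 span -0.44 to 0.28.

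Array sets and single pools bore on several synaptic genes. The arrays with brighter controls were all above the others in Rab3a, Pclo and Nrxn3 (3 of 30, against 17.2% of all tested genes), and all below them in Nlgn1, Dlg2 and Gphn (3 of 30, against 15.3%). Wildtype pool 3 was more than 0.5 from the mean of the other wildtype pools in 6 genes: Nrxn3, Rab3a, Dlg4, Bsn, Pclo and Vamp2. Knockout pool 3 was that far from the mean of the other knockout pools in 2 genes, Nrxn3 (-0.61) and Pclo (-0.60). The share of all tested genes beyond this limit was not counted. The SD between wildtype pools exceeded that between knockout pools in 23 of 30 genes, as in 72.8% of all tested genes. Without wildtype pool 3, limma called 7 synaptic genes higher and 2 lower, where 7.90% and 9.66% of all tested genes were called. Those higher were Snap25, Syt1, Syt4, Cplx2, Rab3a, Slc17a6 and Nrxn3, by 0.29 to 0.72, and those lower were Cplx3 and Rims1.

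Further genes of the synapse gave few calls. Of 65 tested genes of a wider presynaptic list, Synpr rose and Slc32a1 fell. That is 1 call each way, where 2.03% of all tested genes were called higher and 2.63% lower. Synpr encodes synaptoporin, a relative of synaptophysin, and stood at 8.39, 8.29 and 8.44 in knockout pools and 7.69, 7.63 and 7.52 in wildtype pools (difference 0.76, limma adjusted p = 0.00978). Slc32a1, which loads GABA and glycine into vesicles of amacrine and horizontal cells, stood at 6.38, 6.42 and 6.58 in knockout pools and 7.39, 7.58 and 7.14 in wildtype pools (difference -0.91, limma adjusted p = 0.0219). It is also among the amacrine and horizontal cell markers counted further on. The median of the list was 0.08. The call for Slc32a1 was lost without knockout pool 1, knockout pool 2 or wildtype pool 1.

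Of 29 tested genes of a wider postsynaptic and adhesion list, 1 rose and 3 fell, with a median of 0.01. The shares over all tested genes were 2.03% called higher and 2.63% lower. Ptprs, Ptprd and Ptprf encode the receptor tyrosine phosphatases of the LAR family, presynaptic adhesion molecules that organise synapses. Ptprs fell to 10.40, 10.47 and 10.44 in knockout pools, against 10.72, 10.86 and 10.84 in wildtype pools (difference -0.37, limma adjusted p = 0.0316). Ptprd fell to 7.97, 8.14 and 7.98 in knockout pools, against 8.52, 8.55 and 8.50 in wildtype pools (difference -0.50, limma adjusted p = 0.0410). Ptprf went the other way, at 9.31, 9.26 and 9.41 in knockout pools and 9.00, 9.01 and 8.81 in wildtype pools (difference 0.39, limma adjusted p = 0.0845). Cbln2, a secreted organiser that bridges neurexins to glutamate receptor relatives, stood at 6.56, 6.81 and 6.70 in knockout pools and 7.25, 7.35 and 7.50 in wildtype pools (difference -0.68, limma adjusted p = 0.0431). In all 4 genes, which were named because they were called, the genotypes did not overlap. Among all tested genes 10.5% did not overlap with knockout pools higher and 9.48% with knockout pools lower. Leaving out any 1 of the pools other than wildtype pool 3 lowered the count of falls to 0 or 1 and that of rises to 0.

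Markers of retinal cell types moved with genotype beside these genes, and their part in the synaptic results was not tested. For the counts below, 2.03% of all tested genes were called higher and 2.63% lower. Sums of signal cover every gene of a list with a probe set, also those too dim to test. These were 16 amacrine and horizontal cell, 18 photoreceptor and 16 lens genes, more than were tested. Of 17 pan-neuronal markers 4 rose and 2 fell, and the summed signal of the list was 13949 to 14616 in knockout and 11126 to 11915 in wildtype pools. Of 12 tested ganglion cell markers 4 rose and none fell, with sums of 6160 to 6272 in knockout and 4029 to 4414 in wildtype pools. Gap43, which rose, and Elavl4 belong to both of these lists, so their counts and sums are not independent. Of 17 tested photoreceptor markers 4 rose, with sums of 12243 to 14032 in knockout and 8495 to 10790 in wildtype pools, and of 12 tested amacrine and horizontal cell markers 1 rose and 5 fell, with sums of 3643 to 4081 in knockout and 4497 to 5833 in wildtype pools. Of 20 mitosis and progenitor markers 1 rose and 17 fell, with sums of 9338 to 9990 in knockout and 16687 to 17013 in wildtype pools. Of 10 Muller glia markers 4 rose, and sums were 8417 to 8710 in knockout and 5866 to 6165 in wildtype pools. Lens markers, from a tissue outside the retina, rose in 11 of 15, with sums of 24811 to 61682 in knockout and 3267 to 8976 in wildtype pools. No bipolar (6 tested) and no vascular or blood marker (5 tested) was called, and 1 of 6 pigment epithelium markers fell.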

How the data were processed

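For every array, the authors deposited linear intensity values, 1 for each probe set. How probes were summarised into them is not given in the sources used here, no detection calls were used, and the number of arrays limits precision. Of 45101 probe sets, 64 controls were left out, 34945 had 1 gene symbol, 932 had several and 9160 were unnamed. Only those with 1 symbol were used. For 34741 of them the current symbol was looked up through the Entrez identifier (RefSeq names, GRCm38.p6), whether or not it had changed. The array annotation names no build, so no coordinates are given.

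Median log2 values of the deposited arrays ran from 5.34 to 5.66, beyond a tolerance of 0.1, so the linear values were quantile normalised, floored at 1 and taken to log2(value + 16). This scale understates the change of dim genes. The brightest probe set stood for each gene, and the dimmest 40% of genes stayed out of the fit. Testing of the other 10916 used R 4.3.3 and limma 3.58.1 (lmFit, eBayes with an intensity trend, no covariate, two-sided, Benjamini-Hochberg over all tested genes, threshold 0.1 per the labels). The fit was tested on simulated data. Figures used matplotlib 3.10.9.

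The 39 members and all lists were chosen with earlier results of these data known. Called synaptic genes and those whose pools do not overlap are given with every pool value, up to 6 called genes of each wider list are named, and other genes have short values. Alternatives covered scaling, pseudocount, filter, probe set choice, fit, blocks and leaving out each pool.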

Additional observations from a re-analysis of the deposited data

How the results depend on the processing

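There were 564 recomputed differences of the 30 tested genes, over up to 19 alternatives each. Of these, 495 kept their sign and their side of the threshold, 26 passed it newly and 11 lost it. The other 32, over 12 genes, changed sign. The filters on dim genes, the fit without the trend and the replicate block could alter only the p-value, not the difference. Averaged pools and the array set as a block gave the same differences as each other. The probe set rules could not alter the difference of the 13 genes with a single bright probe set. The 495 therefore include differences whose sign was fixed in advance, and how many was not counted.

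Of the synaptic genes called higher (1), there were 5 on deposited values, 3 with probe sets averaged, 2 without the intensity trend, 8 with array weights, 4 with the array set as a block, 0 with pools 1 and 2 averaged (limma, 17 higher and 26 lower calls over all genes), and 1 to 7 leaving out 1 pool. Of those called lower (1), there were 3 with array weights, 0 to 2 leaving out 1 pool, and 0 on deposited values, after centring, without a filter, with the replicate block, with pools averaged and at a threshold of 0.05. Over all genes calls moved too, from 222 higher and 287 lower in the main fit. Higher calls were 416 on deposited values, 232 with probe sets averaged and 150 without the trend. They were 1857 with array weights and 597 with the set block. Lower calls were 1747 with array weights, 176 on deposited values, 135 after centring, 228 without a filter and 143 with the replicate block. Leaving out 1 pool gave 68 to 862 higher and 99 to 1055 lower.

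The presynaptic median was 0.32 on deposited values, 0.26 after centring, 0.11 with array weights and 0.13 to 0.19 leaving out 1 pool. The postsynaptic median was 0.053 with the probe set of largest difference, and the gap between both medians was 0.12 with probe sets averaged.

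In the wider presynaptic list, higher calls were 5 on deposited values, 2 with probe sets averaged, with the largest difference or without the trend, 12 with array weights, 6 with the set block, 0 with pools averaged and 1 to 7 leaving out 1 pool. Lower calls were 0 with the stricter filter on dim genes, the replicate block or pools averaged, 5 with array weights and 0 to 4 leaving out 1 pool. In the wider postsynaptic and adhesion list, higher calls were 4 with array weights and 0 to 2 leaving out 1 pool. They were 0 after centring, without a filter, with either other probe set rule, without the trend, with the replicate block or pools averaged. Lower calls were 1 on deposited values, after centring, with probe sets averaged or the replicate block, 11 with array weights, 0 with pools averaged and 0 to 5 leaving out 1 pool.

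Differences changed sign with array weights in Vamp2 (-0.18), Syn1 (-0.068), Rims2 (-0.044), Pclo (0.31), Nlgn1 (-0.073) and Gphn (-0.14), and on deposited values in Syt11 (0.076) and Pclo (0.068). After centring they did so in Syt11 (0.0084) and Pclo (0.00). With pools averaged or the set block they did so in Rab3a (-0.0004) and Nrxn3 (-0.039), with probe sets averaged in Nrxn3 (-0.18) and Nlgn2 (0.025), and with the largest difference in Nrxn3 (-0.44) and Nlgn2 (0.24). Leaving out 1 pool gave ranges with both signs in Bsn (-0.35 to 0.056), Dlg4 (-0.064 to 0.33), Gphn (-0.060 to 0.15), Nlgn1 (-0.044 to 0.075), Pclo (-0.20 to 0.17), Rims2 (-0.040 to 0.097), Syn1 (-0.045 to 0.12) and Vamp2 (-0.17 to 0.12). The cause of these changes was not tested.

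Same-numbered pools showed correlated deviations of 0.17, -0.35 and -0.48, so the numbers were not taken to pair the pools. Whether same-numbered pools share litters is not given. With the replicate block the call for Rims1 was lost (limma adjusted p = 0.230), and 126 genes were called higher and 143 lower over all tested genes. Called counts over all genes were 1857 higher and 1747 lower with array weights. Without background calls, how far a dim probe set lay above background is not known here.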
